A study of Mus musculus with 12 samples.

Results

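Giant transcripts were examined here, defined as the transcripts listed with a length of 12000 nt or more. They numbered 221 of the 51884 transcripts quantified (0.426%), with a shortest length of 12005 nt, a median of 13874 nt and a longest of 101674 nt, whereas the median over all transcripts was 2357 nt. RNA had been sequenced from the liver and heart of 6 Swiss Webster mice, an outbred laboratory strain, aged 6 to 8 weeks. In the treated groups, 3 mice had received TDI-011536 (LKI-2 in the labels), an inhibitor of the Lats kinases of the Hippo pathway, at 200 mg/kg by intraperitoneal injection. In the control groups, 3 mice were listed with no agent, and the study states that its controls received the vehicle, Kolliphor HS 15. Organs were taken after 4 h, each as 1 library, which gave 12 libraries in 4 groups of 3. Whole-organ homogenates hold several cell types, so a lower level could be fewer cells of a type or less RNA per cell, and these cannot be told apart.

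The lengths were unevenly spread. Between 12000 and 13000 nt there were 69 transcripts, 47 from there to 14000 nt, 65 to 16000 nt, 28 to 20000 nt and 12 at or above 20000 nt. Some transcripts this long encode the largest proteins of the cell, but the length of a transcript does not give the size of a protein. Giant proteins are best known from striated muscle, where titin spans the half-sarcomere as a molecular spring and ryanodine receptors release the calcium that starts contraction. Other transcripts of such length encode linkers of the cytoskeleton, giant cadherins or ubiquitin ligases, and a few are long noncoding RNAs.

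The files list UCSC transcript identifiers and do not pair them with genes, so the tissue markers of liver and heart were not analysed here. The listed length was therefore compared with the lengths of the transcripts in GENCODE M21 (build GRCm38, the assembly also called mm10). Of the 40 members of 16000 nt or more, 13 had exactly the length of the transcripts of 1 gene only, against a mean of 0.75 when the lengths were shifted by 5 to 30 nt. Transcript uc008kfn.1, the longest at 101674 nt, had the length of a titin (Ttn) transcript of 313 exons at chr2:76703984-76982547. Transcript uc007pld.1 (16813 nt) had that of a transcript of Ryr2, the cardiac ryanodine receptor, at chr13:11553103-12106945. Among the others were uc008upr.2 (Macf1, a linker of actin and microtubules), uc008goj.2 (Ahnak, a giant scaffold protein), uc008jqv.1 (Neb, the thin-filament protein nebulin), uc008sfa.1 (Mdn1, an ATPase of ribosome assembly) and uc012bhe.2 (Neat1, the noncoding RNA of paraspeckles). For Pclo, Zan, Strbp and Abca13, 1 transcript each had a matching length. Below 16000 nt a length alone says less, and only genes of lists chosen for giant proteins were matched. Of 181 members there, 11 matched such a gene, against a mean of 1.98 at shifted lengths. A name given here is a match of length, written as "Ttn-length", and not an identity shown by sequence. No match was found for the other members named, which are given by identifier.

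A larger share of the giant transcripts than of all transcripts reached 1 CPM. Levels are CPM, not corrected for length, the estimated reads of a transcript per 1000000 reads of its library. At 1 CPM or more in all 12 libraries were 56 members (25.3%, against 19.5% of all transcripts), while 75 (33.9%, against 48.5%) stayed under 1 CPM in each library and 11 (4.98%, against 19.9%) had no read in any. All hearts reached 1 CPM for 94 members (42.5%, against 28.5% of all transcripts) and all livers for 69 (31.2%, against 23.7%). Of these, 18 did so in each heart but in no liver, and 4 in each liver but in no heart. The shares of these exclusive members were 8.14% and 1.81%, against 3.52% and 1.74% of all transcripts. Among members of at least 1 CPM in a group, the median coefficient of variation between replicates was 0.154 in control livers, 0.205 in treated livers, 0.209 in control hearts and 0.278 in treated hearts. Over all transcripts at that level these were 0.190, 0.213, 0.157 and 0.268. Reads of a gene with several transcripts are divided among them by the authors' tool, and 17 of the 210 members with reads (8.10%) had whole counts in all 12 libraries, against 18.2% of all transcripts with reads. A level of most members thus depends on how reads were divided.

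Total counts lay between 24575658 and 31243782 in livers and between 12618288 and 20533986 in hearts, with the heart of treated mouse 3 the shallowest. A total of 3 reads, taken as the floor, was 0.0960 to 0.122 CPM in 1 liver and 0.146 to 0.238 CPM in 1 heart. A pair of libraries stood apart in what they held of giant transcripts, the liver of control mouse 2 and the heart of treated mouse 3, and their values are given with the results they touch.

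Giant transcripts took a larger share of the reads in heart than in liver. Their summed level was 4486, 4499 and 3934 CPM in control livers, and 7278, 7844 and 9292 CPM in control hearts. It was 4119, 5072 and 4970 CPM in treated livers, and 9244, 8445 and 8346 CPM in treated hearts. The lowest heart thus lay above the highest liver. As means, the sums were 4306 ± 323 CPM (SD, n = 3) in control and 4720 ± 524 CPM in treated livers, and 8138 ± 1039 CPM in control and 8678 ± 492 CPM in treated hearts. The members took 0.393% to 0.507% of the reads of a liver and 0.728% to 0.929% of those of a heart. The read-weighted mean length over all transcripts was 2263 to 2446 nt in livers and 3128 to 3341 nt in hearts. The difference in the sum rested on the scale. With library totals scaled by TMM, a factor that equalizes the bulk of transcripts, the sums were 5517 CPM in control livers and 5676 CPM in control hearts, and 7439 and 6196 CPM in the treated groups.

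A single transcript made up most of the liver's sum. Transcript uc007mzf.2, of 13909 nt, was at 2736, 2785 and 2252 CPM in control livers and at 2562, 3401 and 3258 CPM in treated livers. It was between 0.347 and 0.574 CPM in 5 hearts and at 2.62 CPM in the heart of treated mouse 3. It held 62.8% of the members' reads in the liver (57.2% to 67.0% by library), and its deposited TPM, a level per length, averaged 205 ± 37.2 (SD, n = 6 livers), the highest of all members. The heart's sum was spread more widely. The 81931-nt uc008kfo.1 held 14.2% of it, the Ryr2-length uc007pld.1 brought the share to 28.0%, and 10 members held 55.4%. Without the most abundant member of each organ, the sums were 1716 ± 34.3 CPM in control livers, 1647 ± 80.5 CPM in treated livers, 7120 ± 799 CPM in control hearts and 7313 ± 301 CPM in treated hearts.

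**Figure D1:**
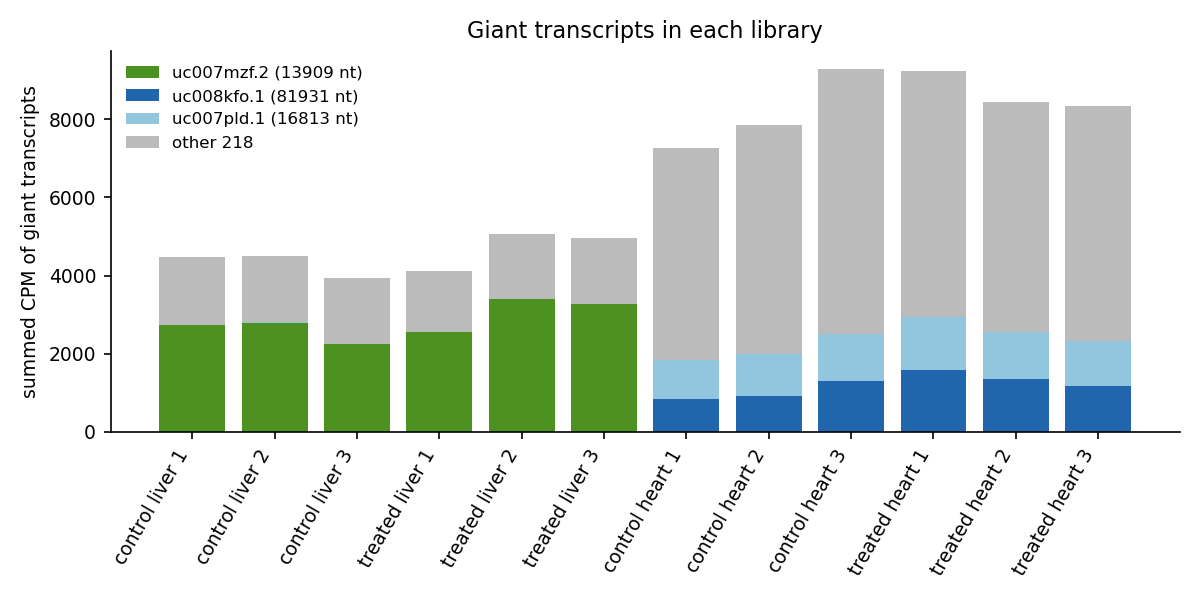
Summed CPM of the 221 giant transcripts in each of the 12 libraries (bars), with 3 abundant members in color and the other 218 in gray. Livers reach 3934 to 5072 CPM, mostly uc007mzf.2, and hearts 7278 to 9292 CPM, where that transcript is not visible.

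Control hearts were compared with control livers to find the members that differ by organ without the compound. Of 125 members with enough reads to be tested, 55 were higher and 19 lower in the heart (44% and 15.2% of those tested) with an adjusted p below 0.05 in edgeR's quasi-likelihood test. Over all 23202 transcripts tested, 27.4% were higher and 27.4% lower. The median log2 fold change (heart minus liver) was 0.60 for the members and -0.01 over all transcripts tested. Of the called members, 55 differed by more than 2-fold and 34 by more than 16-fold. Such counts were not made over all transcripts. The median absolute log2 fold change was 1.19 for the members tested and 1.34 over all transcripts tested, so the members did not differ more by size. The counts of called members depend on the scale as well. TMM lowered the members' log2 fold changes by a median of 0.87, and with library totals 80 members were higher and 11 lower, among 10151 higher and 3697 lower transcripts in all. On that scale the medians were 1.47 for the members and 0.86 for all transcripts, and 6 called members changed sign. For the sizes below, which are on the TMM scale, a difference well beyond that shift keeps its direction on either scale.

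**Figure D2:**
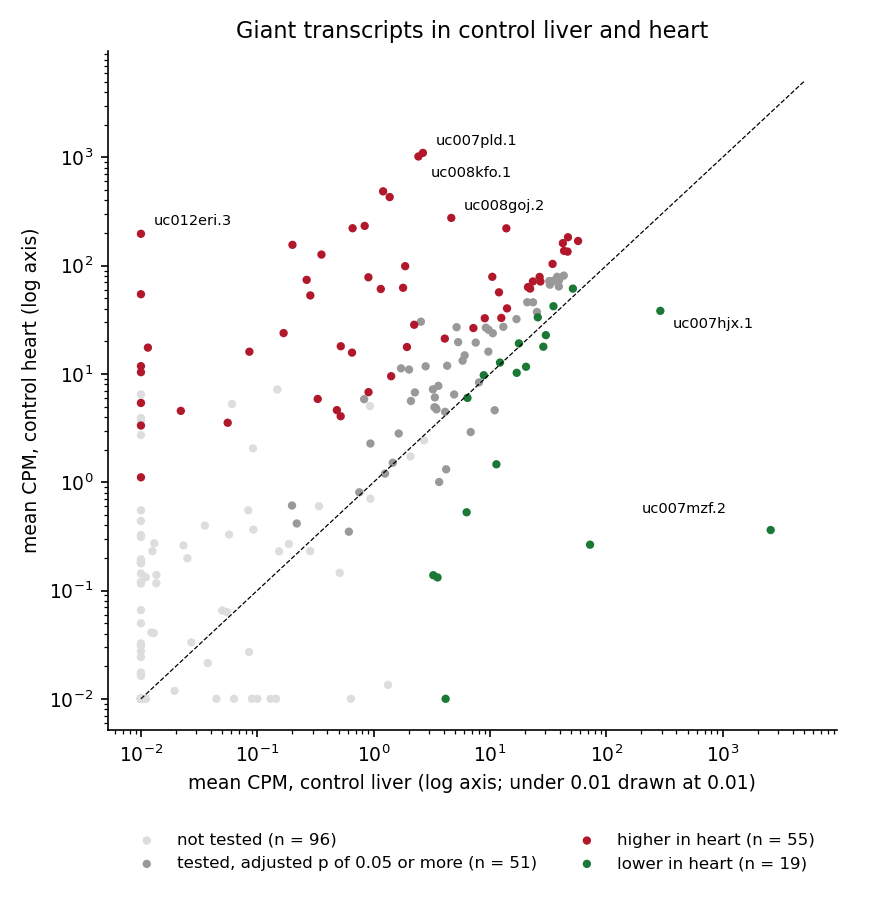
Mean CPM of each giant transcript in 3 control hearts against 3 control livers (log axes; values under 0.01 drawn at 0.01), colored by the result of edgeR's test on the TMM scale; the dashed line marks equal CPM. Several of the 19 members lower in the heart by that test lie above the line, since TMM shifts the comparison by 0.87 on the log2 scale.

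The muscle list held the most abundant giant of control hearts and also some of low level. The sarcomere and muscle list of 10 genes had 6 transcripts of matching length, of which 5 were higher in the heart and none lower in controls. The Ttn-length uc008kfn.1 was at 221, 224 and 219 CPM in control hearts, and at 0.193, 1.79 and 0 CPM in control livers (log2 fold change 7.46, SE 1.10, adjusted p = 0.00244 by edgeR). Without the liver of control mouse 2 that fold change was 10.26. Its TPM, a level per length over 101674 nt, averaged 2.48 ± 0.434 (SD, n = 6 hearts). How reads were divided between it and other long transcripts was not tested. The Ryr2-length uc007pld.1 was at 998, 1085 and 1212 CPM in control hearts, and at 0.263, 7.33 and 0.366 CPM in control livers (log2 fold change 7.82, SE 1.50, adjusted p = 0.00656 by edgeR, and 10.93 without the liver of control mouse 2). Per length it was the most abundant giant of the heart, at 73.6 ± 10.3 TPM (SD, n = 6). For both of these, the lowest heart lay far above the highest liver.

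The other muscle-list matches behaved differently. The Utrn-length uc007ejw.1 (12382 nt, utrophin, a relative of dystrophin) was at 63.2 to 83.1 CPM in control hearts and 21.3 to 27.4 CPM in control livers, a log2 fold change of 0.74 (SE 0.16, adjusted p = 0.0113 by edgeR). In treated mice this was 0.48 (SE 0.13, adjusted p = 0.0214), and that call was lost with the mouse as a block (adjusted p = 0.0794) and without treated liver 2 or 3 or treated heart 1 (0.0709, 0.0891 and 0.0788, all by edgeR). The Neb-length uc008jqv.1, whose product belongs to skeletal rather than cardiac muscle, was low throughout. It was at 0.787, 1.66 and 2.09 CPM in control hearts and at 1.45, 1.70 and 1.24 CPM in control livers, and the organs overlapped.

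Long transcripts without a matched name included others as strong in the heart. Transcript uc008kfo.1, of 81931 nt, was at 844, 915 and 1295 CPM in control hearts and at 0.537, 6.12 and 0.625 CPM in control livers (log2 fold change 7.85, SE 1.21, and 9.97 without the liver of control mouse 2). Transcripts uc008drs.2 (18609 nt) and uc007dxr.2 (12278 nt) had 429 ± 19.3 and 233 ± 16.4 CPM in control hearts (SD, n = 3), with log2 fold changes of 7.39 and 7.23. Without the liver of control mouse 2 these were 10.96 and 8.23. Transcript uc012eri.3, of 13340 nt, was at 180, 205 and 204 CPM in control hearts with no read in any control liver. As the reads were divided, this was a difference of at least 5339-fold when 3 reads are assumed over the 3 livers. For uc009dlv.4, of 13415 nt, the hearts had 54.4, 52.3 and 56.6 CPM and the livers none, at least 1478-fold higher. By contrast, the second longest transcript, uc012fxx.1 of 83437 nt, was present in both organs. It was at 36.6, 33.9 and 33.6 CPM in control livers and at 63.0, 76.6 and 75.4 CPM in control hearts, a log2 fold change of 0.17 (SE 0.11, adjusted p = 0.222 by edgeR). With library totals this was 1.05 and passed the test.

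The cytoskeletal giants called by edgeR also lay on the heart side. That list of 8 genes had 10 transcripts of matching length, mostly of Plec, which encodes the linker plectin. In controls 5 were tested, with 4 higher in the heart and none lower. The Ahnak-length uc008goj.2 was at 246, 254 and 327 CPM in control hearts and at 4.73, 4.87 and 4.36 CPM in control livers, a log2 fold change of 5.02 (SE 0.16, adjusted p = 1.37e-05 by edgeR). The Macf1-length uc008upr.2 was at 53.1, 59.0 and 75.1 CPM against 2.12, 1.72 and 1.54 CPM, a log2 fold change of 4.25 (SE 0.21). The Plec-length uc007wiv.2 was at 18.7, 7.86 and 25.9 CPM in control hearts and had 1 read in all control livers together, so the ratio of 1425 has a 95% counting interval of 256 to 56270, which covers counting error only. That read was an estimate of 0.797 reads in the liver of control mouse 2, rounded to 1. The Plec-length members, of 14855 to 15455 nt, had the lengths of transcripts of 1 gene, so reads could have been divided among them in more than 1 way. Their sequences were not compared.

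Fewer members were lower in the heart. Besides uc007mzf.2 (log2 fold change -13.65, SE 0.23, adjusted p = 7.06e-06 by edgeR), the 14891-nt uc007hjx.1 was at 339, 301 and 235 CPM in control livers and at 37.6, 35.7 and 41.3 CPM in control hearts, a log2 fold change of -3.81 (SE 0.18). Transcript uc007akv.1, of 12928 nt, was at 3.61, 4.72 and 4.15 CPM in control livers with no read in any heart, at least 84.3-fold lower. The matrix and cadherin list had 1 match, the Fat1-length uc009lon.2 (14627 nt, a giant cadherin), at 19.1, 17.1 and 14.8 CPM in control livers and 8.92, 9.90 and 11.9 CPM in control hearts (log2 fold change -1.61, SE 0.17). In the ubiquitin ligase list the 1 match, the Birc6-length uc033hfd.1 (15768 nt), had a log2 fold change of -0.61 (SE 0.15, adjusted p = 0.0189 by edgeR), which turned to 0.26 with library totals, where its control hearts at 36.9 to 51.9 CPM lay above its control livers at 33.7 to 36.5 CPM. With the mouse as a block it did not pass (adjusted p = 0.0539 by edgeR), nor without any one control library except the heart of mouse 3, at -0.51 to -0.61. The lists for lipoprotein receptors and for Yap targets had no matching member. The Neat1-length uc012bhe.2 was at 164, 156 and 164 CPM in control hearts and more variable in control livers, at 64.4, 35.3 and 27.3 CPM. The heart was called higher, at a log2 fold change of 1.05 (SE 0.33, adjusted p = 0.0389 by edgeR), but not with the mouse as a block (adjusted p = 0.0553). That call was also lost without any one of control livers 2 and 3 and of the 3 control hearts, at log2 fold changes of 0.85 to 1.09.

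The same comparison in treated mice shares no library with that in controls. Of 122 members tested, 47 were higher and 18 lower in the heart (38.5% and 14.8%), where 25.6% and 24% of all 22482 transcripts tested were called, with a median log2 fold change of 0.52 for the members and 0.06 for all. With library totals 71 were higher and 11 lower, among 9779 and 3059 in all, and the medians were 1.54 and 1.08. Both comparisons called 43 members higher, 78.2% of the control list and 91.5% of the treated list, and 12 lower, 63.2% and 66.7% of these lists. The same overlap was not counted over all transcripts, so it is not shown to be particular to the giants. The largest differences that met the naming rule were uc008kfo.1 and the Ttn-length uc008kfn.1. The first was at 1584, 1337 and 1173 CPM in treated hearts and had 1 read in all treated livers, a ratio of 121711 with a 95% counting interval of 21845 to 4807340. The second was at 256, 249 and 269 CPM in treated hearts with no read in any treated liver, at least 7662-fold higher. Transcript uc007mzf.2 was again lower, with a log2 fold change of -12.47 (SE 0.83), or -13.56 without the heart of treated mouse 3. Transcript uc008jnd.2, of 16505 nt, was at 3.87, 1.43 and 7.38 CPM in treated livers and rounded to 0 reads in all treated hearts. As the reads were divided, it was at least 71.2-fold lower. In controls it was at 0.320 to 10.1 CPM in livers and at 3.82 CPM in 1 heart, and the organs overlapped. The Strbp-length uc008jnc.2 had 90.0, 80.3 and 78.2 reads in treated hearts and 103, 205 and 14.8 in treated livers. Estimates of both transcripts were fractional, and how reads were divided between them was not tested. In the sarcomere and muscle list the same count of 5 of 6 transcripts was higher and none lower, and in the cytoskeletal list 3 of 4 tested were higher. The Fat1-length uc009lon.2 was lower here too, with a log2 fold change of -1.69 (SE 0.41, adjusted p = 0.0153 by edgeR). This call was lost without any one of treated livers 1 and 3 and treated hearts 2 and 3, at log2 fold changes of -1.47 to -1.61.

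Transcripts abundant in the heart were not spread evenly over the livers. The 8 heart-abundant members, chosen by level and not by gene as those with at least 100 CPM in each heart and a liver median of at most 1% of the heart's, summed to 24.7 CPM in the liver of control mouse 2 and to between 0.205 and 1.69 CPM in the other 5 livers. As a median over the 8, that liver had 0.639% of the mean heart level, whereas the others had between 0% and 0.0325%. One of the 8, uc012eri.3, had no read there. Another giant of the heart, uc009dlu.3, had 1439, 1674 and 1630 reads in control hearts and 0, 82.0 and 0 in control livers. How reads were divided among such transcripts was not tested. The uneven spread held beyond giant transcripts. For 228 heart-abundant transcripts of any length, the median was 0.912% in the liver of control mouse 2 and 0.00419% to 0.0536% in the others. In hearts, 263 liver-abundant transcripts of any length had medians of 0.00688% to 0.0447% of the liver level, with the heart of treated mouse 3 the highest.

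**Figure D3:**
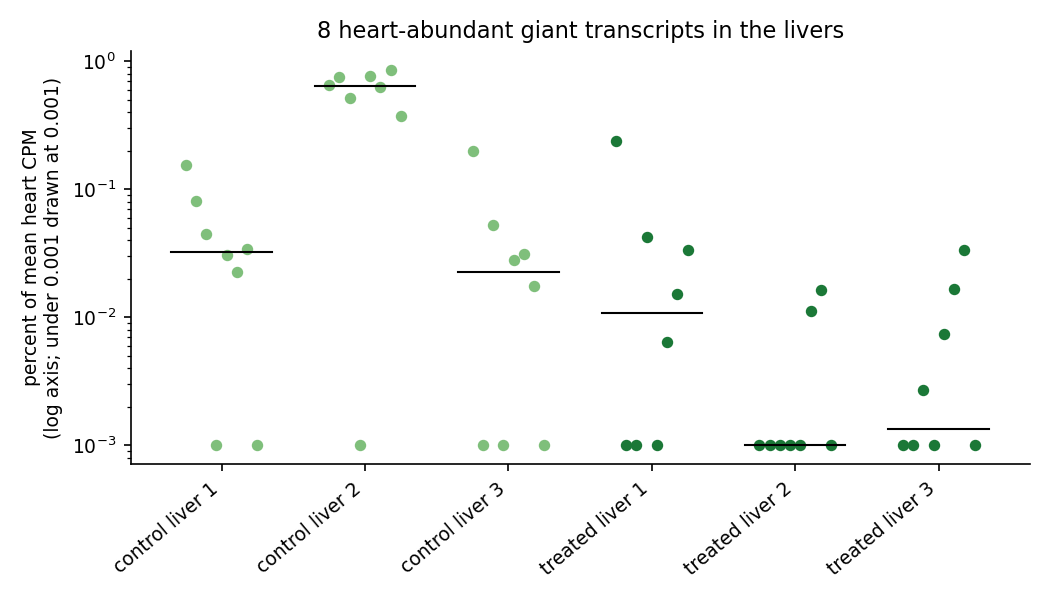
Level of 8 heart-abundant giant transcripts in each of the 6 livers, as a percent of their mean CPM over 6 hearts (log axis; values under 0.001 drawn at 0.001); points are transcripts and lines are medians. The liver of control mouse 2 has a median of 0.639%, above the 0% to 0.0325% of the other livers.

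Between organs, the median log2 fold change (heart minus liver) on the TMM scale was higher in the long classes than in the short ones. Class medians were not computed with library totals, where the median over all transcripts in controls was 0.86, so the sign of a class median rests on the scale. In controls the median log2 fold change was -0.19 for transcripts under 1000 nt, -0.23 from 1000 to 1999 nt, -0.07 from 2000 to 3999 nt, 0.30 from 4000 to 7999 nt, 0.49 from 8000 to 11999 nt and 0.60 for the giant transcripts. In treated mice these were -0.05, -0.14, 0, 0.33, 0.41 and 0.52. The giants thus lay at the end of a gradient, next to the 682 transcripts of 8000 to 11999 nt tested in controls, of which 38.9% were higher and 15.1% lower. As the quartiles of each class overlapped, length told little about any one transcript. Libraries of 1 group also differed along length. Relative to its group, the heart of control mouse 1 had giants lower by a median of 0.14 and the heart of control mouse 3 higher by 0.16, on a log2 scale of CPM plus 0.5. Among livers this deviation ran from -0.13 in treated mouse 1 to 0.12 in treated mouse 3. In the liver of treated mouse 1, transcripts under 1000 nt deviated by 0.18, the other way. The part of these shifts in the results was not tested.

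**Figure D4:**
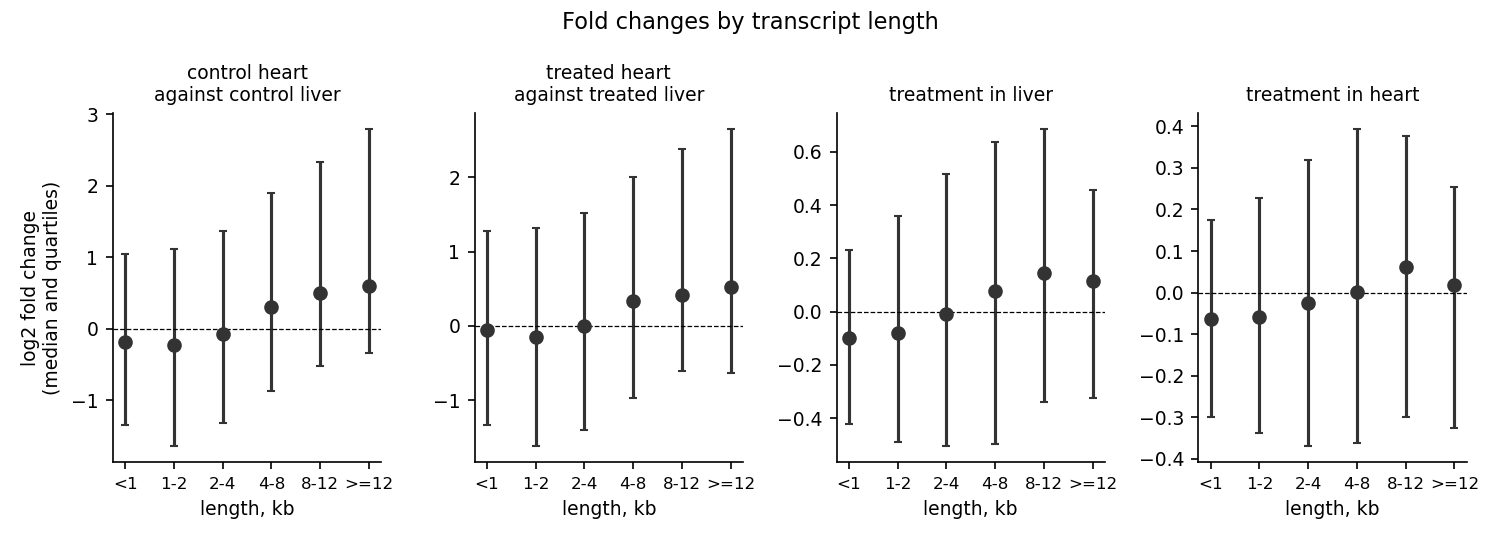
Median log2 fold change (points) and quartiles over transcripts (bars) by class of transcript length in kb, for 4 comparisons on the TMM scale, each panel with its own vertical axis. Medians rise from the short classes to the long ones between organs and, on a smaller scale, after treatment, from -0.10 under 1 kb to 0.15 at 8 to 12 kb and 0.11 for the giants in the liver, and from -0.064 to 0.063 and 0.019 in the heart.

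In the liver, treated and control mice were compared for the response to TDI-011536 at 4 h. Of 105 members tested, 9 were higher and 1 lower (8.57% and 0.952%), among 6.09% higher and 3.37% lower of all 20628 transcripts tested, by edgeR's quasi-likelihood test at an adjusted p under 0.05. At an unadjusted p under 0.05 there were 19 and 6 (18.1% and 5.71%, against 13.5% and 10.9% of all). The share of higher members was thus near that of transcripts at large. The median log2 fold change (treated minus control) was 0.11 for the members and -0.02 over all transcripts. With library totals it was -0.20 and -0.32, and 8 members were higher and 8 lower, among 774 higher and 1872 lower in all, so the direction of the balance rested on TMM. None of the 10 called members changed sign, and uc008ewo.2 alone of the 9 no longer passed. The count of higher members rested on single libraries too. It was 3 without the liver of control mouse 2, 6 without that of control mouse 1 or of treated mouse 2 or 3, and 7 without that of control mouse 3. The 1 lower call was lost without any one control liver.

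The strongest rise was that of uc007hzf.1, a transcript of 12258 nt. It was at 0.589, 1.90 and 1.28 CPM in control livers and at 17.7, 15.7 and 30.2 CPM in treated livers, a log2 fold change of 4.37 (SE 0.48, adjusted p = 0.00794 by edgeR), 20.7-fold. Its lowest treated liver lay above its highest control liver by far. In the hearts it stayed at 0.781 to 1.53 CPM in controls and 1.12 to 1.36 CPM in treated mice. The second of the rule was uc009hwx.2, of 12543 nt, at 26.6, 26.4 and 28.5 CPM in control and 97.2, 77.6 and 59.1 CPM in treated livers (log2 fold change 1.83, SE 0.21, adjusted p = 0.00888). Without the liver of control mouse 2 it missed the threshold (adjusted p = 0.0528). Neither transcript had a matched name.

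The other members higher in treated livers are named because all calls are shown. Transcript uc009jjp.1, of 15553 nt, was at 25.5, 27.1 and 27.6 CPM in control and 65.4, 51.2 and 69.1 CPM in treated livers (log2 fold change 1.51, SE 0.11, adjusted p = 0.00392 by edgeR). It had the smallest adjusted p of the 10. With uc007hzf.1 and uc007wja.2, it was 1 of 3 that passed whichever liver was left out, although uc007wja.2 did not with all 12 libraries in 1 fit (adjusted p = 0.426 by edgeR). Transcript uc007wio.1, of 12325 nt, was at 14.6, 12 and 7.54 CPM in control and 27.5, 28.8 and 36.9 CPM in treated livers, a log2 fold change of 1.75 (SE 0.26). The Mdn1-length uc008sfa.1 was at 10.8, 8.68 and 7.03 CPM in control and 16.4, 18.0 and 21.3 CPM in treated livers, a log2 fold change of 1.37 (SE 0.20, adjusted p = 0.0158). Without the liver of control mouse 2 both missed the threshold (adjusted p = 0.0784 and 0.0772 by edgeR), as they did without that of treated mouse 2 (0.0584 and 0.0585) or 3 (0.0636 and 0.0627). Transcripts uc007aoj.2 (17210 nt) and uc007wja.2 (14856 nt) rose with log2 fold changes of 1.45 (SE 0.19) and 1.09 (SE 0.14), and the 24271-nt uc007aon.2 with 1.07 (SE 0.15). The call of uc007aoj.2 was lost without control mouse 1 or 2 (adjusted p = 0.0557 and 0.0601 by edgeR), and that of uc007aon.2 without any one control mouse (0.0523 to 0.0691). The smallest called rise was that of uc008ewo.2 (12211 nt), at 0.64 (SE 0.11), which was lost without any one liver but that of treated mouse 1 (adjusted p = 0.0740 to 0.0878 by edgeR). For each of the 9, the 3 treated livers lay above the 3 controls.

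The transcript lower in treated livers was uc009nhl.2, of 13381 nt. It was at 3.10, 2.88 and 3.80 CPM in control livers and rounded to 0 reads in all treated livers, so it was at least 97.0-fold lower by the same bound. Its reads were fractional estimates, and that bound does not cover how reads were divided among transcripts, which was not tested. In hearts uc009nhl.2 was near 0 in 5 of 6 libraries (at most 0.410 CPM) and at 13.5 CPM in the heart of treated mouse 3. The most abundant giant of the liver, uc007mzf.2, was not called, with a log2 fold change of 0.55 (SE 0.17, adjusted p = 0.107 by edgeR) and overlapping groups, while DESeq2's Wald test called it (adjusted p = 0.00955). For none of the lists with a match was a matched transcript called in the liver by edgeR. The Utrn-length uc007ejw.1 came nearest, at a log2 fold change of 0.57 (SE 0.14, adjusted p = 0.0629), and it passed by DESeq2 (adjusted p = 0.00692) and with all libraries in 1 edgeR fit (0.0389).

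**Figure D5:**
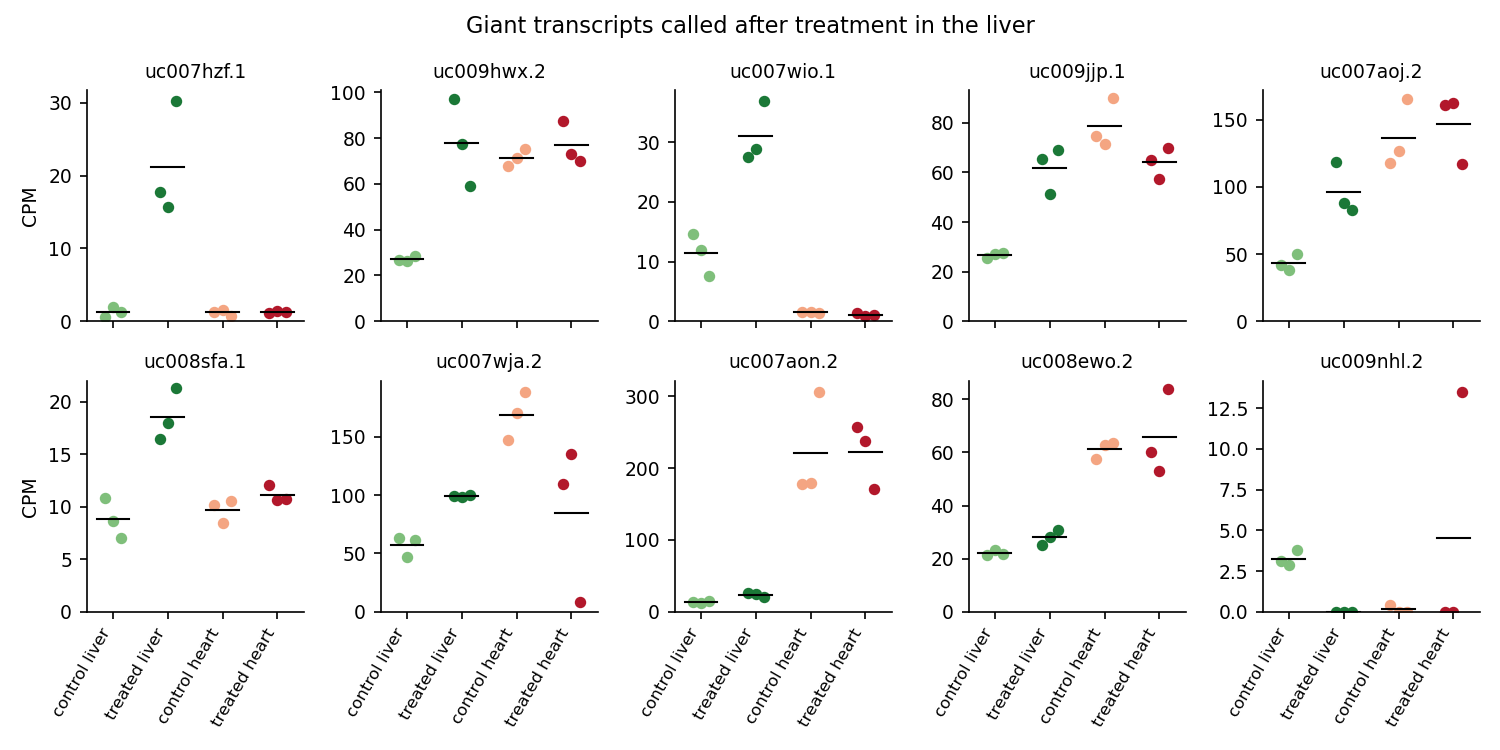
CPM of the 10 giant transcripts called after treatment in the liver, in each of the 12 libraries (points, 3 mice per group) with group means (lines), each panel with its own axis from 0. The treated livers lie above the controls in 9 panels and below them in uc009nhl.2, where the heart of treated mouse 3 stands alone at 13.5 CPM.

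In the heart no member was called after treatment, 0 higher and 0 lower of 130 tested, where 0.404% and 0.0898% of 22281 transcripts were called by edgeR. At an unadjusted p under 0.05 there were 11 and 3 (8.46% and 2.31%, against 6.12% and 4.66% of all). DESeq2's Wald test called 7 and 1, and limma-voom none, with no share over all transcripts beside them. At edgeR's percentages over all transcripts, fewer than 1 call would fall on 130 transcripts, so its count of 0 says little of the members. Their median log2 fold change was 0.02, against -0.03 over all transcripts. The Ahnak-length uc008goj.2 was at 246, 254 and 327 CPM in control and 412, 414 and 410 CPM in treated hearts, groups that did not overlap, with a log2 fold change of 0.63 (SE 0.13, adjusted p = 0.142 by edgeR). The Ttn-length uc008kfn.1 was at 219 to 224 CPM in control and 249 to 269 CPM in treated hearts, also apart, at 0.27 (SE 0.06, adjusted p = 0.181). DESeq2 called both. The Ryr2-length uc007pld.1 at 0.21 (SE 0.12) had overlapping groups. By edgeR no other match of the muscle list was called in the heart by treatment either.

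The heart of treated mouse 3 stood apart for single giants. Transcript uc012fxx.1 was at 172 CPM there and at 62.3 to 76.6 CPM in the other 5 hearts, whereas uc007wja.2 was at 8.27 CPM there and at 109 to 189 CPM in the others. This library was also the one with 2.62 CPM of uc007mzf.2 and 13.5 CPM of uc009nhl.2. With it, treated hearts did not differ from treated livers in uc007wja.2 by the test (log2 fold change -1.23, SE 0.88, adjusted p = 0.299 by edgeR). Without it, that difference was -0.69 and passed (adjusted p = 0.0122 by edgeR). In that heart the reads of uc012fxx.1, uc007wja.2 and uc009nhl.2 were fractional estimates. How reads were divided between these and other transcripts was not tested, so a level that stands apart there could also come from that division.

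The response itself differed between organs for 5 members, by the interaction of organ and treatment in edgeR's quasi-likelihood test over all 12 libraries. Of 145 members tested, 1 had a higher and 4 a lower response in the heart (0.690% and 2.76%), among 1.06% and 1.69% of all 26434 transcripts tested. DESeq2 called 7 and 6, limma-voom 0 and 2, and edgeR with the mouse as a block 0 and 1. No share over all transcripts stands beside the counts of these alternatives. The 4 members with a lower response in the main fit were uc007hzf.1, uc007wio.1, uc009jjp.1 and uc009hwx.2. Each was higher in treated than in control livers and not called in the heart. For uc009jjp.1 the heart minus liver difference in response was -1.77 (SE 0.17, adjusted p = 0.00116), and it alone was called with the mouse as a block. For uc007hzf.1 it was -4.28 (SE 0.59, adjusted p = 0.00648), with 0.0863 as the blocked adjusted p. For uc009hwx.2 and uc007wio.1 it was -1.67 (SE 0.26) and -2.16 (SE 0.37), with blocked adjusted p of 0.0636 and 0.111. In controls, uc009hwx.2 and uc009jjp.1 were higher in the heart than in the liver, by log2 fold changes of 0.52 and 0.68. In treated mice both were called lower in the heart, at -1.05 and -0.98, and these were the only 2 members called in opposite directions. With library totals the treated differences were -0.019 and 0.048 and did not pass, as treated liver and treated heart overlapped in CPM. The 1 higher response was that of uc008kfo.1, at 7.54 (SE 1.70, adjusted p = 0.0491), and it rested on the few reads of this transcript in livers, of which control mouse 2 held the most. Without that mouse it was 5.37 and still passed (adjusted p = 0.0306), and without any one of the other 5 mice it did not (0.0740 to 0.189), nor with the block (0.274, all by edgeR). The call of uc009hwx.2 was lost without any one control mouse or treated mouse 2 (0.0613 to 0.0730). That of uc007wio.1 was lost without control mouse 2 or treated mouse 2 or 3 (0.0698 to 0.0923).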

How the data were processed

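The authors deposited estimated counts per transcript, not normalized, for 12 libraries (TruSeq stranded mRNA kit), and tools listed in the submitters' processing notes are Salmon 0.8.2 and DESeq2 1.20.0, with mm10 as the build. Effective lengths and TPM stood beside them. The deposited TPM, a level per length, was treated as a score here because each file stacks 2 tables. It was used to rank members, is printed for some of them, and was not tested. The first table was used, and at most 2 members of a library differed from the second by over 1 read. The release of the transcript set is not given in the sources used here.

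Members were chosen by length alone, but the members and lists were chosen with earlier results of these data known. CPM was the estimated count over the library total. Counts were rounded and all transcripts were tested in R 4.3.3 with edgeR 4.0.16 (filterByExpr with a minimum count of 10, TMM, quasi-likelihood test, Benjamini-Hochberg adjustment over all transcripts tested), on the groups compared alone, and on all 12 libraries for the difference in response. SE is the log2 fold change over the square root of F. Member rows were then read out. Alternatives used DESeq2 1.42.0, limma 3.58.1, other scaling and filters, the second table, transcripts with whole counts (within 1e-06), blocks, 1 fit of all libraries and leaving out each library or mouse. Scaling by library totals and the sum without the top member were chosen after seeing the data. Fits were tested on simulated counts with 200 changed transcripts. Figures used Matplotlib 3.10.9.

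The rule for naming took the 5 longest members, the 5 of highest TPM in each organ and, per comparison, the 2 largest positive and negative changes that passed an adjusted p of 0.05, averaged 1 CPM or more and kept the groups apart. It allowed gene names only where a table pairs identifiers with genes. None does, so names come from a match of length to GENCODE M21, which, with its limit of 16000 nt, was chosen after seeing the data. Other members were named after their values were seen. A named item of the muscle list is not reported here. Where a group had 0 reads after rounding, 3 reads were assumed over that group and the fold in CPM is a bound. Such a bound does not cover how reads were divided among transcripts.

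Liver and heart with the same label number come from 1 mouse. Correlations of their deviations from the group means, over 12806 transcripts, lay between -0.0397 and 0.0718, so the block for the organ comparisons rests on the labels. Between control and treated mice the number pairs nothing. The 3 mice of a group are the replicates.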

Additional observations from a re-analysis of the deposited data

Results flagged for a closer look

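The response to TDI-011536 differed between heart and liver for 5 giant transcripts when the interaction of organ and treatment was tested with edgeR. The differences, heart response minus liver response on the log2 scale, were 7.54 for uc008kfo.1, -1.67 for uc009hwx.2, -1.77 for uc009jjp.1, -4.28 for uc007hzf.1 and -2.16 for uc007wio.1. The 4 negative values belong to transcripts that were higher in each treated liver than in any control liver. With the mouse as a block only uc009jjp.1 passed. For uc008kfo.1 the control livers were at 0.537, 6.12 and 0.625 CPM and the treated livers at 0, 0 and 0.0322 CPM, beside 844 to 1584 CPM in hearts.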

How the results depend on the processing

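On the log2 scale, the medians over members are those of the fold changes. With library totals in place of TMM, medians were 1.47 (control organs), 1.54 (treated organs), -0.20 (treatment in liver) and 0.30 (difference in response), and members higher were 71 in treated organs (80 in controls), members lower 11 and 11 between organs and 8 in liver. The sign reversed with it for uc008sfa.1 at 0.13 and uc033hfd.1 at 0.26 between control organs, and uc033hfd.1 at 0.13 and uc009jjp.1 at 0.048 between treated organs. DESeq2's Wald test gave medians of 0.74, 0.81 and 0.016 for both organ comparisons and the liver, and 16 higher and 7 lower members in liver, 7 and 1 in heart, and 7 higher for the difference in response. Limma-voom gave 2 lower in liver, and 0 higher and 2 lower for the difference. Without a filter the medians were 0.73, 0.92 and 0.012, and no member had a higher response. A minimum count of 50 gave 0.60 for treated organs and 2 lower in liver. With all libraries in 1 fit, the medians were 0.75 for treated organs and 0 for liver, with 3 lower in liver. That fit is the one used for the difference in response, so it gave no other value there. Testing transcripts with whole counts alone, which removes most members, left 3 and 2 (control organs), 7 and 3 (treated organs) and 2 and 2 (liver) members higher and lower, and 0 and 0 for the difference, with medians of 0.28, 0.19 and 0.17 for control organs, liver and the difference. The mean summed CPM of control liver, treated liver, control heart and treated heart was 5517, 7439, 5676 and 6196 with TMM-scaled totals, and 531, 553, 5212 and 5817 for lengths of 15000 nt or more. It was 1716, 1647 and 7313 for control liver, treated liver and treated heart without the most abundant member. DESeq2's size factors in edgeR and the second table moved none of these. Apart from fewer transcripts or samples, the cause was not tested. Counts of members under alternatives other than library totals have no share over all transcripts beside them.

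When 1 library was left out there were 50 to 57 higher and 13 to 17 lower members between control organs (median 0.57 to 0.73), 41 to 51 and 16 to 20 between treated organs (0.55 to 0.77), 3 to 9 and 0 to 2 in liver (0.019 to 0.13), and 0 and 0 in heart (-0.033 to 0.16). Leaving out 1 mouse gave 0 to 1 and 2 to 4 for the difference in response (-0.04 to 0.13). The summed CPM then ranged from 4210 to 4493, 4544 to 5021, 7561 to 8568 and 8395 to 8844 in the groups in the order above. With the replicate number as a block, 0 members were higher and 0 lower in liver, and the numbers do not pair control with treated mice (correlations of -0.0605 to 0.0450). The mouse as a block gave 0 and 1 for the difference in response, and organ counts within 1.5 times. Of 2364 values of named transcripts under alternatives, 2241 kept direction and side of the threshold, 99 fell below it, 20 passed it and 4 reversed. Depth limits levels under the floor of 3 reads.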
